A study of Saccharomyces cerevisiae with 8 samples.

Results

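ISU2 and DRE2 are a pair of yeast genes for the assembly of iron-sulfur clusters. They were taken as the spots (features) of the array whose annotation gives ISU2 or DRE2 as the only gene symbol. ISU2 has 2 such features and DRE2 has 1, so 3 of the 3344 features with a single symbol, among 6912 features in all, are described. The 2 genes were chosen by their measured yap1d over WT ratios, which were low in earlier results of these data. Their yap1d over WT values are therefore given as a description, with no test.

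The study compared budding yeast (Saccharomyces cerevisiae) lacking YAP1 (yap1d) with wild type (WT). Yap1 is the main transcriptional activator of the oxidative stress response in this yeast. Deletion and WT were set side by side in BY4741 and in BY4742, 2 strain backgrounds that differ in mating type and in 1 auxotrophic marker each (BY4741 lacks MET17, BY4742 lacks LYS2). Every culture, WT included, grew in YPD until the optical density was 0.5 and then spent 2 h in hydroxyurea (200 mM), a drug that blocks ribonucleotide reductase. No culture without the drug was analysed here, so the response to hydroxyurea itself is not measured. Each background had 2 spotted slides, each hybridised with RNA of both genotypes: yap1d was in channel 1 on slide 19 (BY4741) and slide 21 (BY4742), and in channel 2 on slide 20 (BY4741) and slide 22 (BY4742). The titles give 2 columns per slide, fort and faible, taken here as its 2 scans, so there are 8 columns. The deposited values are ratios, so no level of a gene, and no strain marker, could be checked as present or absent. YAP1 itself was not analysed here.

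Iron-sulfur clusters are small cofactors of iron and sulfide that carry electrons or bind substrates in many enzymes. In yeast they are first built in mitochondria on a scaffold protein, encoded by ISU1 and its paralog ISU2. Sulfur is supplied by the cysteine desulfurase Nfs1, iron supply involves the frataxin Yfh1, and electrons come from the ferredoxin Yah1. A second machinery in the cytosol, which depends on the mitochondrial one, inserts clusters into cytosolic and nuclear proteins. Dre2 is an iron-sulfur protein that works early in it, taking electrons from the reductase Tah18. Dre2 and Tah18 also help to form the iron cofactor of the small subunit of ribonucleotide reductase, the enzyme that hydroxyurea inhibits.

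ISU2 and DRE2 both lay lower in yap1d than in WT in both backgrounds. Averaged over its 2 features, ISU2 was at -0.81 in BY4741 and -0.57 in BY4742 on the log2 scale, with a mean of -0.69 ± 0.170 (SD, n = 2 backgrounds), which is 1.61-fold lower. DRE2 was at -0.61 in BY4741 and -0.38 in BY4742, with a mean of -0.49 ± 0.160 (SD, n = 2 backgrounds), which is 1.41-fold lower. These values are log ratios from which the median of each column was subtracted. Neither the base of the logarithm nor the channel on top of the ratio is given in the sources used here. The base was taken as 2, and with a natural logarithm the folds would be 1.98 and 1.64. The direction is likely, not certain: it was set so that the thioredoxin gene TRX2 (-1.57 ± 0.393) and the thioredoxin reductase gene TRR1 (-0.998 ± 0.00265), which Yap1 is known to activate, come out lower in yap1d. Should that be wrong, all signs here turn. In bulk cultures, less RNA per cell and fewer cells that express a gene cannot be told apart.

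The scaffold gene ISU2 (locus YOR226C, chromosome XV) was spotted in print blocks 38 and 40. The annotation gives both features 1 sequence record in common and a further record for the one in block 40. As deposited, with yap1d in channel 1, the feature in block 38 read -1.10 (fort) and -0.91 (faible) on slide 19, and -0.83 and -0.69 on slide 21. With yap1d in channel 2 it read -0.18 and -0.06 on slide 20, and 0.14 and 0.11 on slide 22. The columns of the 2 orientations did not overlap, but all except those of slide 22 lay below 0. ISU2 had been chosen for its low ratio, so nothing is read from the lack of overlap. The medians of the slide 20 columns were also below 0, at -0.21 (fort) and -0.25 (faible). Once centred, this feature read 0.03 and 0.19 on slide 20, opposite in sign to slides 19 and 21.

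The feature in block 40 read -0.86 (fort) and -0.93 (faible) on slide 19, and -0.53 and -0.59 on slide 21. With the channels exchanged it read 1.41 and 1.17 on slide 20, and 0.63 and 0.41 on slide 22. Here the orientations had opposite signs on every slide, and slide 20 stood far above slide 22.

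DRE2 (locus YKR071C, chromosome XI), the cytosolic assembly factor, has 1 feature, in print block 25. With yap1d in channel 1 it read -0.38 (fort) and -0.63 (faible) on slide 19, and 0.01 and -0.22 on slide 21. With yap1d in channel 2 it read 0.71 and 0.55 on slide 20, and 0.61 and 0.40 on slide 22. The orientations did not overlap, and on slide 21 the values were nearest to 0.

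All 3 features had every column with yap1d in channel 1 below every column with yap1d in channel 2 once centred, as did 10.9% of the 6912 features. The direction of the members had been a reason to choose them, so nothing is read from this count. Turned to yap1d over WT, all 8 columns of each of the 3 features were below 0, which held for 80 of all features (1.16%). For the same reason nothing is read from this count either. In single columns the members were not always among the lowest of the 6912 features: DRE2 stood between percentiles 4.41 and 48.3, the ISU2 feature of block 38 between 4.99 and 48.9, and that of block 40 between 0.145 and 18.2. None of the 24 readings of the members was exactly 0, as 45 to 92 features were in each column.

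**Figure D1:**
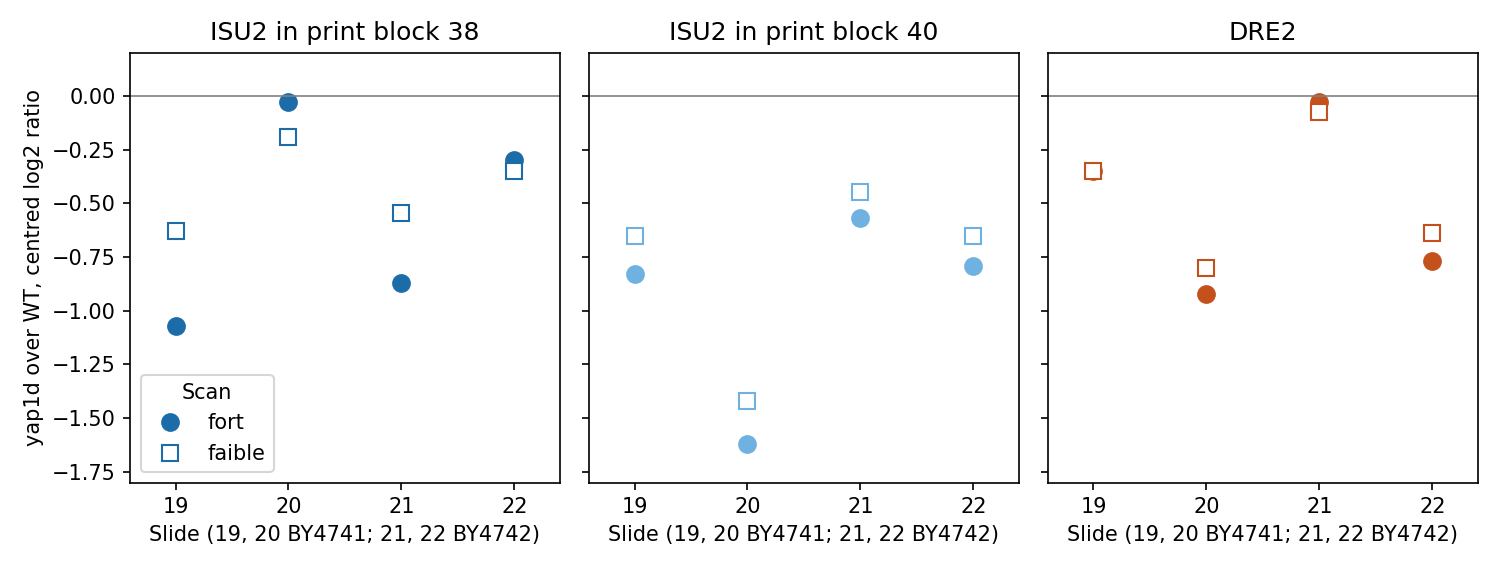
Centred log2 ratio of yap1d over WT (vertical axis) on each slide (horizontal axis) for the 2 features of ISU2 and the feature of DRE2, with filled circles for fort and open squares for faible scans. All 24 points lie below 0, from -1.62 for the ISU2 feature of block 40 on slide 20 to -0.03 for DRE2 on slide 21 and the ISU2 feature of block 38 on slide 20.

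The 2 features of ISU2 were unequal in size. With scans averaged, the feature in block 38 stood at -0.85 (slide 19), -0.11 (slide 20), -0.71 (slide 21) and -0.33 (slide 22). The feature in block 40 was at -0.74, -1.52, -0.51 and -0.72 on the same slides. The features thus lay within 0.20 of each other on slides 19 and 21, where yap1d was in channel 1, and 1.41 apart on slide 20. Over both backgrounds the feature in block 38 averaged -0.50 ± 0.0256 (SD, n = 2 backgrounds) and the one in block 40 averaged -0.87 ± 0.365. Their distance of 0.37 compares with a median of 0.069 over the 197 genes that have exactly 2 features, and 3 of these genes, ISU2 included, had a distance as large.

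Slide 20 carried most of that distance. With slide 20 left out and the channel fitted on the other 3 slides, which was tried only once the values were known, the feature in block 38 was at -0.55 and the one in block 40 at -0.67. The mean of ISU2 was then -0.61. Leaving out any 1 slide kept ISU2 between -0.61 and -0.76 and DRE2 between -0.42 and -0.57.

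Which transcript the ISU2 features report on is not settled by the files. ISU1 and ISU2 are paralogs with similar coding sequences, no feature analysed here carried ISU1 alone, and the probe sequences were not used here. Binding of ISU1 RNA to the ISU2 spots was not tested.

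The 2 scans of a slide differed little for DRE2, by 0.13 or less after centring. For the ISU2 feature in block 38 the fort scan was lower than the faible scan by 0.44 on slide 19, where the median absolute difference over all features was 0.12. On slide 21 the fort scan of this feature was lower by 0.33, against a median of 0.085. For the ISU2 feature in block 40, fort minus faible was -0.18, 0.20, -0.125 and 0.14 on slides 19 to 22. The median absolute differences over all features on these slides were 0.12, 0.10, 0.085 and 0.10. With fort columns alone ISU2 was at -0.76 and with faible columns alone at -0.61.

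The channel effect, which is the mean ratio over both orientations and does not involve the genotype, was tested on the 4 slides with limma. DRE2 had a channel effect of 0.29 ± 0.0662 (SE; adjusted p = 0.00376, Benjamini-Hochberg over all 6695 genes and unnamed features, limma). On the values as deposited, with no centring, it was 0.13 and did not pass (adjusted p = 0.1996, limma). Of 3127 genes tested, 2127 passed this test, or 68%, so a channel effect of DRE2 is the usual case on these slides. ISU2 as a gene had a channel effect of -0.02 ± 0.0657 (adjusted p = 0.835, limma). That small value was the average of opposite ones: the feature in block 38 was at -0.28 ± 0.0739 (adjusted p = 0.00631) and the feature in block 40 at 0.25 ± 0.0819 (adjusted p = 0.0198), both in limma over all features. Their distance of 0.53 in channel effect was not unusual: the median over the 197 genes with 2 features was 0.35, and 56 of them, ISU2 included, had one as large.

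Single slides, which still hold the channel effect, were uneven for DRE2. It was at -0.35 on slide 19 and -0.05 on slide 21, with yap1d in channel 1, and at -0.86 on slide 20 and -0.71 on slide 22, with yap1d in channel 2. ISU2 as a gene was at -0.80, -0.82, -0.61 and -0.52 on slides 19 to 22, a narrower range. Those values average 2 features with opposite channel effects, whereas DRE2 has 1 feature. Singly, the ISU2 features were uneven too, from -0.85 to -0.11 in block 38 and from -1.52 to -0.51 in block 40. In the mean of 2 slides of opposite orientation, a channel effect that is equal on both slides cancels. Whether it was equal was not tested.

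**Figure D2:**
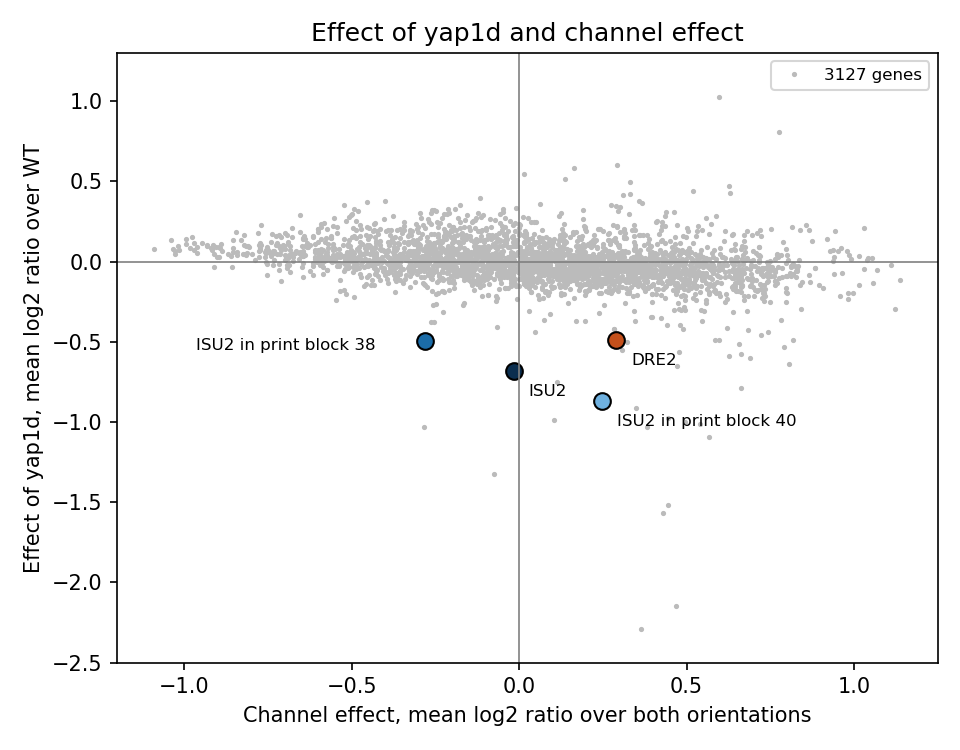
Mean log2 ratio of yap1d over WT (vertical axis) against the channel effect in log2 (horizontal axis) for 3127 genes (grey), with ISU2, DRE2 and, separately, the 2 ISU2 features marked. The ISU2 features stand on opposite sides of 0 on the horizontal axis (-0.28 and 0.25) and both lie below 0 on the vertical axis (-0.50 and -0.87).

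The second question was whether the deletion acted differently in BY4742 and BY4741. Both genes were nearer to 0 in BY4742. The difference, BY4742 minus BY4741, was 0.24 ± 0.131 (SE) for ISU2 and 0.23 ± 0.132 for DRE2, and neither passed (adjusted p = 0.507 and 0.536 with limma on 4 slides). The 95% intervals ran from -0.06 to 0.54 for ISU2 and from -0.08 to 0.53 for DRE2, so these slides bound the difference only loosely. None of 3127 genes passed (0% called), while 395 had an unadjusted p under 0.05.

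The 2 features of ISU2 were also read separately. The feature in block 38 was at -0.48 in BY4741 and -0.52 in BY4742, a difference of -0.04 ± 0.148 (SE; adjusted p = 0.931, limma). The feature in block 40 was at -1.13 in BY4741 and -0.61 in BY4742, a difference of 0.52 ± 0.164 (SE; adjusted p = 0.328, limma; unadjusted p = 0.0106). No label says whether a background's 2 slides used RNA of separate cultures, so these p-values may measure technical spread only.

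In the order of all 3127 genes by mean ratio, from the lowest, ISU2 stood at place 16 and DRE2 at place 27. Beside ISU2 stood the alpha-factor gene MF(ALPHA)2 (-0.75 ± 1.13), next below it, and the mitochondrial manganese superoxide dismutase gene SOD2 (-0.65 ± 0.0698), next above. Beside DRE2 stood the RNA helicase gene DBP2 (-0.50 ± 0.204) and the glutaredoxin gene GRX2 (-0.49 ± 0.197). None of these neighbours differed in its mean from the member by more than the member's own SD over the backgrounds. MF(ALPHA)2 itself varied far more between the backgrounds than ISU2 did (SD 1.13 and 0.170). Within single backgrounds ISU2 stood at place 14 in BY4741 and 33 in BY4742, and DRE2 at places 25 and 65. The SD of the mean ratio over all genes was 0.154 and their median -0.01.

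Likeness to other genes was measured as the root-mean-square distance between values on the 4 turned slides, which still hold the channel effect. With ISU2 and DRE2 themselves left out, the nearest genes to ISU2 were YHR140W (distance 0.259), a gene of unknown function, the methylglyoxal reductase gene GRE2 (0.330), the glutathione transferase gene ECM4 (0.332) and CCS1 (0.377), which encodes the copper chaperone of superoxide dismutase. The means of these were -0.44, -0.99, -0.41 and -0.55. For DRE2 they were the polyamine transporter gene TPO1 (0.130), CCS1 (0.142), the multidrug transporter gene SNQ2 (0.191) and the sterol reductase gene ERG4 (0.194). Their means were -0.42, -0.55, -0.42 and -0.34. CCS1 was on both of these lists. ISU2 and DRE2 were 0.368 apart, so that 3 genes were nearer to ISU2 than DRE2 was and CCS1 was farther. The median distance of a gene was 0.784 from ISU2 and 0.625 from DRE2. Both members had been chosen for low ratios in these data, so their nearness to each other and to other low genes is description only.

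**Figure D3:**
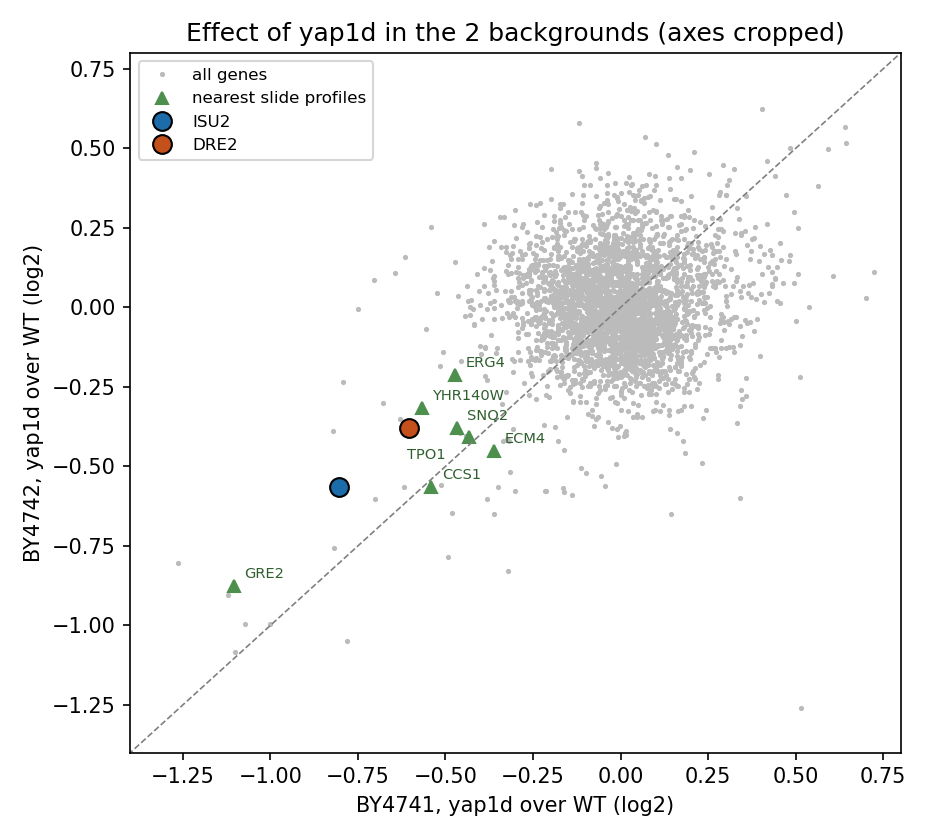
Log2 ratio of yap1d over WT in BY4741 (horizontal axis) and BY4742 (vertical axis) for all genes (grey), ISU2 and DRE2 (circles) and the genes with the nearest slide profiles (triangles); the dashed line marks equal values, and genes outside the cropped axes are not drawn. ISU2 lies at -0.81 and -0.57 and DRE2 at -0.61 and -0.38, both above the line.

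The genes next to ISU2 and DRE2 on their chromosomes were taken in the order of the R64 reference table. RPB8, an RNA polymerase subunit gene on one side of ISU2, was at -0.05 ± 0.118 and HER1 on the other at 0.01 ± 0.285. YKR070W and the coenzyme A biosynthesis gene SIS2, on either side of DRE2, were at -0.05 ± 0.146 and -0.06 ± 0.0981. None of these 4 genes passed the main test, in which 2.11% of 3127 genes passed. The 8 spots around each member feature on the slide, by feature number, had medians from -0.13 to 0.09 in single backgrounds. With the median of each print block removed, ISU2 was at -0.64 and DRE2 at -0.43.

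Among the remaining genes of mitochondrial iron-sulfur assembly no change was called. Of 22 listed genes 12 were measured, and of the 11 besides ISU2 none passed, against 2.11% of all genes (limma, 2 backgrounds; 1 of the 11 had an unadjusted p under 0.05). With limma on the 4 slides, where 1.54% of all genes passed, none of the 11 did, and 2 had an unadjusted p under 0.05. Their median was -0.06, beside -0.01 for all genes, and 9 of the 11 lay below 0.

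The frataxin gene YFH1 was highest at 0.25 ± 0.259 (BY4741 0.43, BY4742 0.07; adjusted p = 0.424, limma). YFH1 passed only without slide 22, where it was at 0.44 (adjusted p = 0.00994, limma); its 4 slides read 0.07, 0.80, 0.08 and 0.05, so slide 20 alone was high. Next to the desulfurase, ISD11, whose product stabilises Nfs1, was at 0.09 ± 0.240, and ACP1, the mitochondrial acyl carrier protein gene, at -0.09 ± 0.0928. YAH1, the ferredoxin gene, was at -0.02 ± 0.0398.

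Among chaperones that release the cluster from the scaffold, the J-protein gene JAC1 was at -0.12 ± 0.211 and the exchange factor gene MGE1 at -0.04 ± 0.167. Among genes that act late, on clusters for particular mitochondrial enzymes, ISA1 was at -0.16 ± 0.0468, IBA57 at -0.19 ± 0.0415 and NFU1 at -0.06 ± 0.160. IBA57 was below 0 on all 4 turned slides, as 2.21% of all genes were, and had an adjusted p of 0.780 (limma). The iron carriers of the inner membrane, MRS3 and MRS4, were at -0.05 ± 0.107 and -0.10 ± 0.0256.

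Of 10 listed genes of cytosolic assembly 6 were measured. None of the 5 besides DRE2 passed in either fit, against 2.11% and 1.54% of all genes, or had an unadjusted p under 0.05. The scaffold genes CFD1 and NBP35 were at -0.04 ± 0.000884 and -0.02 ± 0.128. NAR1, which hands clusters on, was at -0.12 ± 0.296. LTO1 and YAE1, adaptors for the cluster of the ribosome recycling factor Rli1, were at 0.10 ± 0.165 and 0.14 ± 0.298. The median of the 5 was -0.02. TAH18, the partner of DRE2, was not analysed here.

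**Figure D4:**
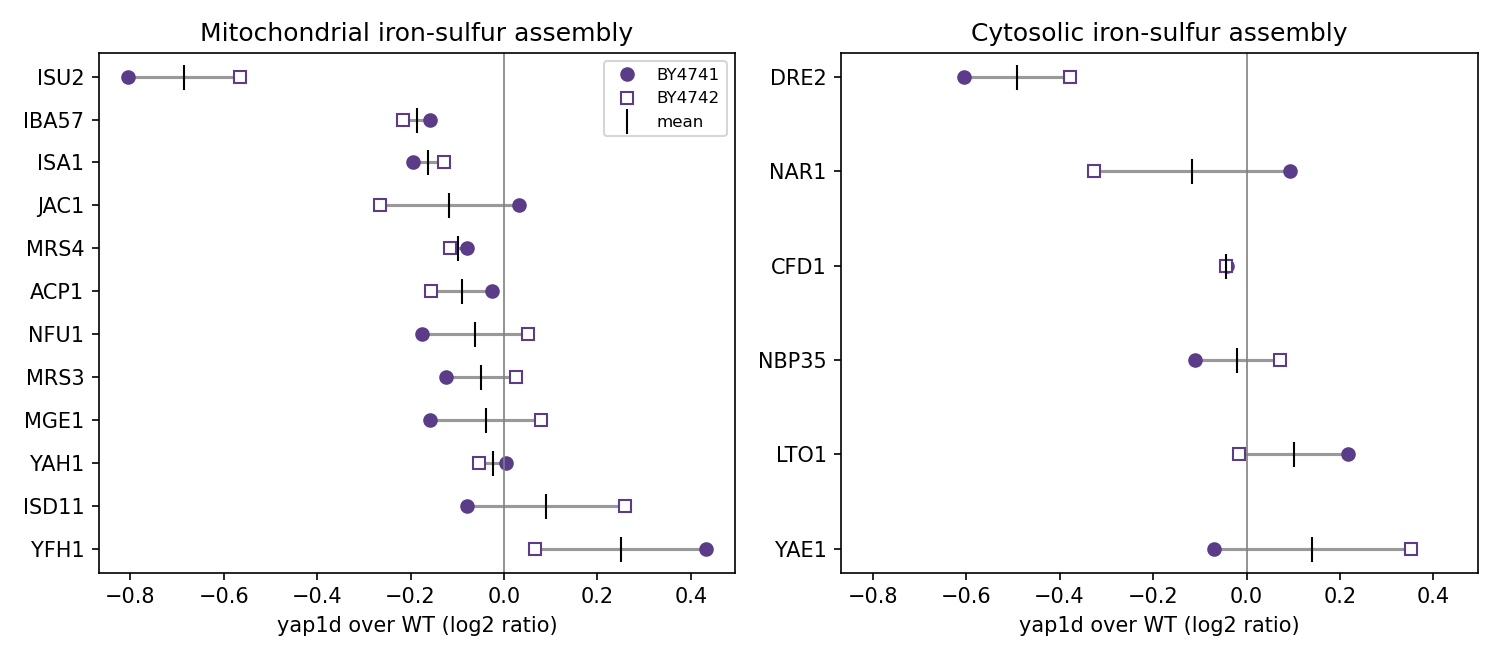
Log2 ratio of yap1d over WT (horizontal axis) in BY4741 (filled circles) and BY4742 (open squares), with the mean as a tick, for the measured genes of mitochondrial (left) and cytosolic (right) iron-sulfur assembly. ISU2 (mean -0.69) and DRE2 (mean -0.49) lie lowest, and the means of the other genes run from -0.19 for IBA57 to 0.25 for YFH1.

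Proteins that carry the clusters showed no called change in their genes. Of 27 listed genes 18 were measured. None passed with limma on 2 backgrounds or on 4 slides, where 2.11% and 1.54% of all genes did. In each fit 1 of the 18 had an unadjusted p under 0.05. Their means ran from -0.27 to 0.14, with a median of -0.05. RLI1, the recycling factor that needs cytosolic assembly for its clusters, was lowest at -0.27 ± 0.0115 (adjusted p = 0.319; 0.213 on the 4 slides). The glutamate synthase gene GLT1 followed at -0.17 ± 0.114 and the DNA polymerase gene POL3 at -0.16 ± 0.227.

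The iron cofactor of ribonucleotide reductase, with which Dre2 is concerned, had 4 of 12 listed genes measured. None of the 3 besides DRE2 passed in either fit, against 2.11% and 1.54% of all genes. The small subunit genes RNR2 and RNR4 were at 0.08 ± 0.201 and -0.02 ± 0.128. WTM1, which holds the small subunit in the nucleus, was at 0.21 ± 0.116 and had an unadjusted p of 0.0490 in limma (adjusted p = 0.653).

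Of 10 listed genes of iron sensing and storage, 6 were measured under their listed names. None of the 6 passed in either fit, against 2.11% and 1.54% of all genes, or had an unadjusted p under 0.05. FRA2 was measured under its other name, BOL2, and is left out of this count. BOL2 was at -0.03 ± 0.116 and did not pass (adjusted p = 0.994 with limma on 2 backgrounds, 0.944 on 4 slides). The iron regulator genes AFT1 and AFT2 were at 0.04 ± 0.135 and -0.20 ± 0.169, FRA1, whose product restrains Aft1, was at 0.20 ± 0.0256, and CCC1, the iron transporter gene of the vacuole, at -0.12 ± 0.0309. Of 12 measured iron uptake genes, of 22 listed, FIT3 fell and none rose, against 2.11% of all genes called in either direction. In this list 4 genes had an unadjusted p under 0.05 with limma on 2 backgrounds and 5 on the 4 slides. FIT3, a cell wall mannoprotein gene, was at -0.98 ± 0.657, with -0.51 in BY4741 and -1.44 in BY4742. Its adjusted p was 9.07e-17 with limma on 2 backgrounds and 0.0143 on 4 slides. The p on 2 backgrounds rests on the common SD of 0.153 given to every gene, not on the SD of FIT3 itself. FIT3 did not pass without slide 19 or without slide 21, nor after quantile normalization or scaling to equal SD, nor on 4 slides with a robust variance prior. The ferric reductase gene FRE5 (0.32 ± 0.0928), the siderophore transporter gene ENB1 (-0.30 ± 0.365) and FRE4 (0.24 ± 0.0504) did not pass. FRE5 passed on the values as deposited (0.38, adjusted p = 0.0427, limma), and ENB1 passed without slide 20 (-0.43, adjusted p = 0.0100, limma). FIT3 was lower in BY4742 than in BY4741, whereas ISU2 and DRE2 were lower in BY4741, and none of these differences passed.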

How the data were processed

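RNA of yap1d and WT yeast was labelled indirectly and hybridised to 2-channel spotted slides, per the labels. The deposited values are log ratios of the 2 channels, taken as log2; the base, the channel on top and any background correction or normalization are not given in the sources used here. Slides of the same orientation correlated at 0.847 and 0.858 over features and those of opposite orientation at 0.760 to 0.810, so a channel effect is present. Array annotation was updated through gene identifiers to the R64 reference table (3343 of 3344 single-symbol features matched; 387 features had several symbols and were left unnamed). Features of a gene were averaged, leaving 6695 units, of which 3127 are genes.

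Columns were centred on the median, scans averaged, ratios turned to yap1d over WT and the 2 slides of a background averaged. The main test was limma's intercept over the 2 backgrounds (lmFit and eBayes, limma 3.58.1, R 4.3.3), two-sided, Benjamini-Hochberg adjusted p under 0.05 over all units. Its variance prior was infinite, so every gene had the common SD of 0.153. Strain difference and channel effect were fitted on 4 slides with a term for the channel and 1 for each background, leaving 1 residual degree of freedom. The test of yap1d over WT on 4 slides had a term for the channel and 1 yap1d effect shared by both backgrounds. It took the 4 slides as separate replicates. The slides of a background may share cultures, so its p-values may measure technical spread in part. The fits were also run on simulated slides, with the same change in both backgrounds and independent noise. Spread between backgrounds and shared cultures were not simulated, so that run does not bear on them. The number of arrays limits the precision.

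The genes and lists were chosen with earlier results of these data known. Named are the members, all measured assembly genes, and in each other list those that passed and up to 3 more with the largest change. Also named are the 4 nearest profiles, the neighbours in order, and TRX2 and TRR1. AFT1, BOL2 and the neighbours on the chromosomes are named outside that rule, once values were known. Planned promoter and protein descriptions were not made, because no such sequences were used here. Alternatives varied scan, centring, scaling, turning, slides, features and prior. Figures were drawn with matplotlib 3.10.9.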

Additional observations from a re-analysis of the deposited data

How the results depend on the processing

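ISU2 and DRE2 kept values below 0 under each alternative with turned columns. With columns left unturned, the fitted value is the channel effect and not that of yap1d (-0.016 for ISU2, 0.29 for DRE2). The count of genes called unturned, given below, is likewise one of channel effects. Leaving out 1 slide gave -0.61 to -0.76 for ISU2 and -0.42 to -0.57 for DRE2. ISU2 was at -0.50 from the feature in block 38 alone and -0.87 from that in block 40; these were at -0.44 to -0.55 and -0.67 to -1.07 with 1 slide left out. The count of 66 called genes was 18 after quantile normalization, 27 at equal SD and 2127 unturned, and 3 to 95 with 1 slide left out (3 without slide 19 or slide 21, 95 without slide 20, 92 without slide 22). The split was 49 lower and 17 higher, but 36 and 34 as deposited, 58 and 37 without slide 20 and 49 and 43 without slide 22. DRE2's channel effect was 0.13 as deposited (adjusted p = 0.1996, limma), where medians stay in. ISU2's, -0.016, was 0.043 in faible columns alone, -0.18 as deposited (adjusted p = 0.0814) and -0.10 without print block medians (adjusted p = 0.102), and did not pass in any (limma). Strain differences were called in 73 genes with faible columns alone and 15 as deposited, against 0; neither ISU2 nor DRE2 was among them (adjusted p of 0.204 to 0.769 over the alternatives). The cause was not tested. No paired analysis was possible across backgrounds because they share no replicate number; yap1d and WT are paired within each slide by the ratio itself.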
